A study of Mus musculus with 78 samples.

Results

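The 10 genes described here belong to the endoplasmic reticulum (ER) stress response and were followed through cerebral arteries of mice: Hspa5, Hyou1, Calr, Pdia4, Dnajb9, Sdf2l1, Creld2, Manf, Xbp1 and Atf4. They were taken by name from the protein-coding rows of the expression table, and 10 of 10 were found among its 54532 genes, 22046 of which are protein coding. The choice of the 10 was made with earlier results of these data known. Shares of all genes given beside their counts are therefore a background and no independent test of the 10. All 10 passed the filter on low values, at least 1 FPKM (fragments scaled by transcript length and by the library's mapped fragments) in at least 3 libraries, as did 15707 genes in all.

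The ER folds proteins that a cell secretes or sets into its membranes. When unfolded proteins build up there, sensors in the ER membrane start the unfolded protein response: IRE1 splices the Xbp1 messenger RNA into one that encodes an active transcription factor, PERK slows translation while favouring that of ATF4, and ATF6 is cut to release a transcription factor. Together these raise the chaperones and folding enzymes of the ER. In arteries the load on this system includes the collagen and other matrix proteins that smooth muscle cells and fibroblasts secrete.

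The arteries came from male wild-type C57Bl6 mice that ate ad libitum (AL) or were kept on intermittent fasting (IF) for 3 months and then had bilateral carotid artery stenosis (BCAS), an operation that narrows both common carotid arteries and so limits flow into the brain, or sham surgery. Arteries were collected on day 1, 7, 14, 21 or 30 after the operation, which gave 20 groups, 18 with 4 libraries and 2 (BCAS AL on day 1, sham IF on day 7) with 3, or 78 libraries in 4 arms: 20 sham AL, 19 sham IF, 19 BCAS AL and 20 BCAS IF. Day 7 is given by the group labels only. The hours of the fast, the hour of collection, whether a mouse was fasting when it was killed and whether each library is one animal are not given in the sources used here, so p-values measure the spread between these libraries, which may be technical. In whole arteries, fewer cells of a type and less RNA per cell cannot be told apart.

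The libraries held 14601572 to 25944175 fragments, as recovered from the FPKM values, and mitochondrial genes took 4.62 to 7.54% of them. In 3 libraries, replicates 2 and 4 of sham AL on day 7 and replicate 2 of BCAS AL on day 1, genes under 300 bases took over 0.2%. The smooth muscle markers Acta2 (1757 to 7630 FPKM) and Myh11 (147 to 577 FPKM) were high in each of the 78 libraries, while Tagln was at 11.6 to 60.3 FPKM. The endothelial markers Cldn5 (326 to 756 FPKM) and Pecam1 (39.7 to 94.8 FPKM) were present in each as well. Among genes of neighbouring tissues, the leptomeningeal gene Ptgds was at 27178 to 64358 FPKM and the pituitary hormone gene Gh reached 4974 FPKM in 1 library. The astrocyte gene Gfap was at 23.0 to 76.7 FPKM. Sham AL day 21 replicate 4 stood apart for the ER stress genes: its score over the 10 genes (mean of their standardized log2 values) was the highest of 78 at 2.02, and results that rest on it are given with and without it.

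Promoter sequences are shown because several of the genes carry the composite element that ATF6, with the factor NF-Y, is known to bind in ER stress genes: CCAAT, a spacer of 9 bases of any kind, and CCACG. RefSeq promoters (GRCm38.p6) were at hand for 8 of the 10 genes, which leaves Hyou1 and Manf. Given 5′ to 3′ on the gene's strand are the 250 bases before the RefSeq start, with the CCAAT and CCACG boxes of the composite element, or their complements, in capitals. Hspa5 (chr2:34771840-34772089, plus strand), Creld2 (chr15:88819396-88819645, plus strand) and Calr (chr8:84846932-84847181, minus strand) hold the element. Sdf2l1, Pdia4, Dnajb9, Xbp1 and Atf4 do not, and Atf4 (chr15:80254934-80255183, plus strand) is printed as an example of these.
Hspa5: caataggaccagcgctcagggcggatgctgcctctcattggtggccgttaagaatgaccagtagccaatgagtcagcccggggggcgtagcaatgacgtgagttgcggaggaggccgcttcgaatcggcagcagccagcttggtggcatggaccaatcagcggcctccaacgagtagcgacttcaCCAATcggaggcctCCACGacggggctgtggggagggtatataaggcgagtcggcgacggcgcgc
Creld2: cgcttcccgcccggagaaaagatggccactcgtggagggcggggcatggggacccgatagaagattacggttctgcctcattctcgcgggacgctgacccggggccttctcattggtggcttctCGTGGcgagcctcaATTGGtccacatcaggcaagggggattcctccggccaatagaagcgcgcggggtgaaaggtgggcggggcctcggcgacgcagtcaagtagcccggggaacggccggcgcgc
Calr: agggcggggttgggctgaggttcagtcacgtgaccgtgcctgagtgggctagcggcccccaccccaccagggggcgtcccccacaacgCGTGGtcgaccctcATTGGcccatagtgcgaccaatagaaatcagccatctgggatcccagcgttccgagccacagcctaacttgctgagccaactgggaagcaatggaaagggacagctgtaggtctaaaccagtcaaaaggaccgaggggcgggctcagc
Atf4: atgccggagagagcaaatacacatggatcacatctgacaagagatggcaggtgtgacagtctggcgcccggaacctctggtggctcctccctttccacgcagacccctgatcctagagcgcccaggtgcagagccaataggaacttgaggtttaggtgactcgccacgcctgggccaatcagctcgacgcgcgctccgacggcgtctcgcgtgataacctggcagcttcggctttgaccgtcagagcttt

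The composite element lay at bases -65 to -47 from the start in Hspa5, on the gene's strand, and on the opposite strand at -126 to -108 in Creld2 and -162 to -144 in Calr. Searched on both strands over windows from 250 bases before to 50 bases after the start, it was in 3 of 8 promoters of the ER stress genes and in 39 of 32851 promoters in the table (0.119%). The CCACG box, which is also the end of the composite element, was in 7 of 8 (all but Xbp1) and in 32.8% of the table's promoters. The related element ATTGG, any base, CCACG was in 0 of 8 (0.0365% of the table), TGACGTGG, a site bound by XBP1, in 0 of 8 (0.676%), and TGATGCAAT, a composite site bound by ATF4 with C/EBP proteins, in 0 of 8 (0.192%). These are matches of letters within the windows and no measurement of binding.

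FPKM is scaled by transcript length, so levels can be set side by side between genes. The abundant ER chaperones led. Calr, a calcium-binding chaperone of glycoproteins (chromosome 8, 84841850 to 84846934, minus strand, coordinates as in the expression table), was at 201 ± 43.9 FPKM (SD, n = 78), and Hspa5, which encodes BiP, the central ER chaperone and the protein that holds the stress sensors inactive (chromosome 2, 34771970 to 34777547, plus strand), was at 162 ± 52.2 FPKM. The transcription factor genes Atf4 (chromosome 15, 80255184 to 80257541, plus strand) and Xbp1 (chromosome 11, 5520659 to 5525893, plus strand) followed at 63.4 ± 9.97 and 61.3 ± 11.6 FPKM. The table counts genes, so spliced and unspliced Xbp1 were not separated, and the control of Atf4 by translation is not measured.

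Manf, a small secreted protein retained in the ER (chromosome 9, 106838312 to 106891979, minus strand), was at 47.1 ± 13.9 FPKM. Its interval overlaps Dcaf1 on the plus strand and Rbm15b on the minus strand, the strand of Manf. Whether the authors' counting used strand is not given in the sources used here, and strand would not separate Manf from Rbm15b. Pdia4, a disulfide isomerase (chromosome 6, 47796141 to 47813430, minus strand), was at 42.8 ± 10.3 FPKM, and Creld2, an ER-resident and secreted protein with EGF-like domains (chromosome 15, 88819646 to 88826683, plus strand), at 40.3 ± 11.96 FPKM. Dnajb9, a J-domain cochaperone of BiP (chromosome 12, 44205559 to 44210326, minus strand), was at 33.4 ± 5.52 FPKM, and Sdf2l1, a partner of ER J-domain proteins (chromosome 16, 17130138 to 17132383, minus strand), at 28.5 ± 11.98 FPKM. Hyou1, a large ER chaperone and nucleotide exchange factor of BiP (chromosome 9, 44379490 to 44392369, plus strand), was lowest at 12.8 ± 3.86 FPKM. Relative to its mean Sdf2l1 varied most, with a coefficient of variation of 42.1%, and Atf4 (15.7%) and Dnajb9 (16.5%) least. At these levels counting noise was small: the lowest single value behind any gene was 247 fragments, for Sdf2l1.

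**Figure D1:**
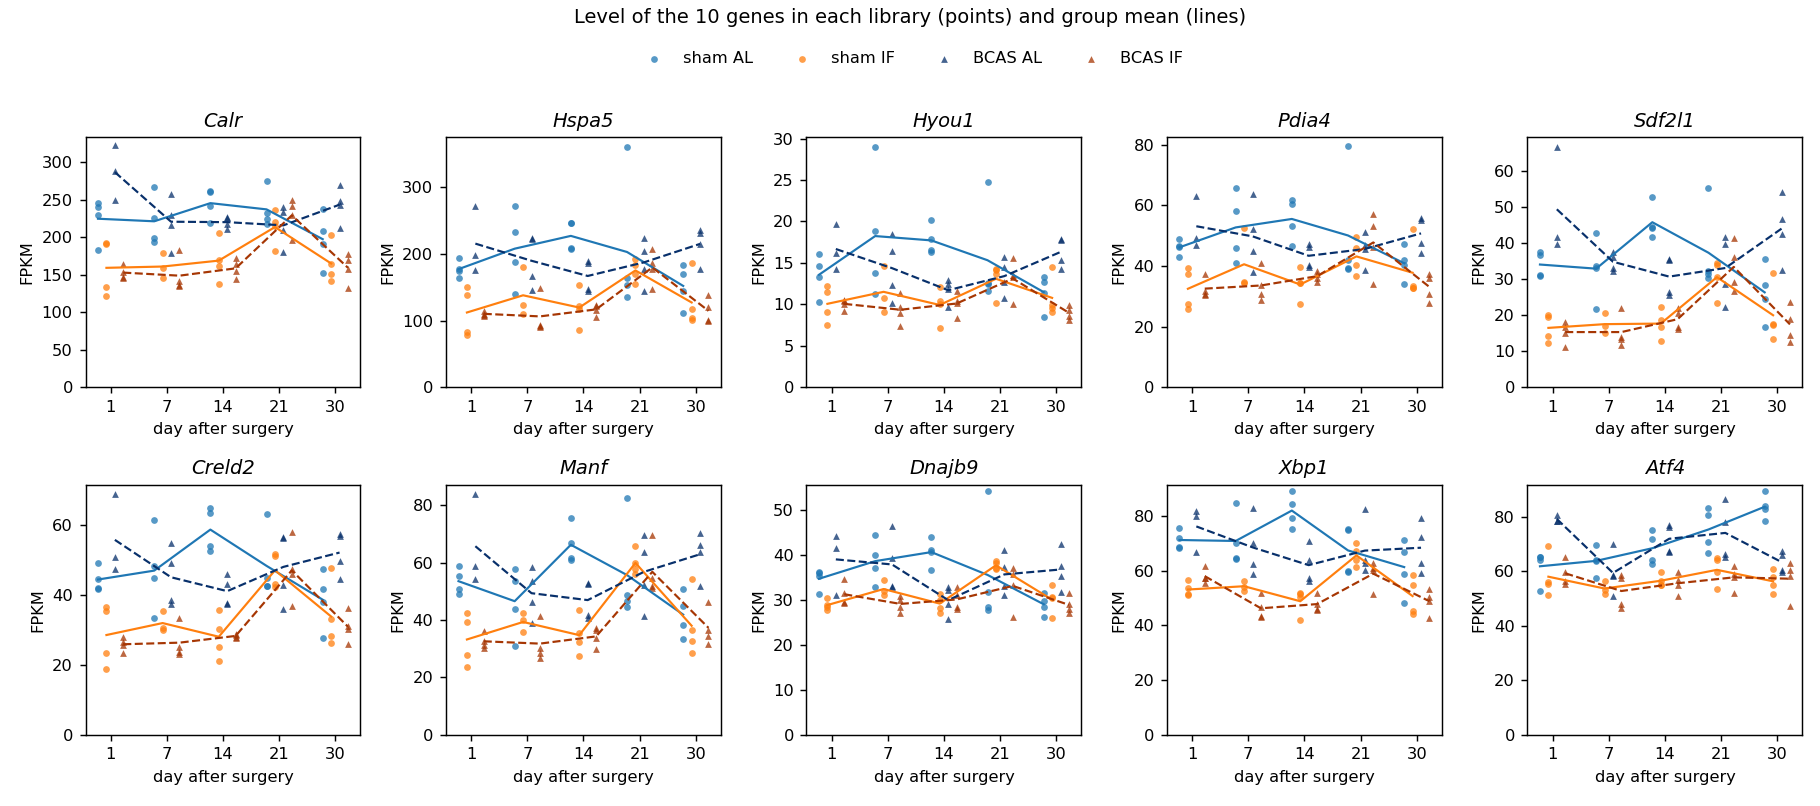
FPKM (linear axis from 0) of each of the 10 ER stress genes in each library (points, circles for sham and triangles for BCAS) and the group means (lines) by day after the operation (days equally spaced, arms set side by side within a day), for the 4 arms. The AL means lie above the IF means for most genes on days 1, 7 and 14, and the IF means come up to them on day 21.

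Ranked by mean level, the AL groups filled 8 or 9 of the 10 highest places for each of the 10 genes. The IF groups among the highest 10 were those of day 21 in each case, and the AL groups outside it included sham AL on day 30 for 9 of the 10 genes, all but Atf4. The ratio of the highest to the lowest group mean ran from 1.41 for Dnajb9 to 3.22 for Sdf2l1. Sdf2l1 shows the order in full. BCAS AL day 1 was highest at 49.5 ± 14.9 FPKM (SD, n = 3), followed by sham AL day 14 at 45.9 ± 4.92 and BCAS AL day 30 at 44.1 ± 9.03 (n = 4 each). A middle run from 37.4 ± 12.03 (sham AL day 21) down to 26.4 ± 7.87 (sham AL day 30) held the other AL groups and both IF groups of day 21 (BCAS 33.4 ± 6.65, sham 30.6 ± 5.17), and within it neighbours differed by less than the larger of their SDs. The other 8 IF groups lay between 20.02 ± 8.11 and 15.3 ± 4.65 FPKM, again with neighbours closer than the larger of their SDs. Across all 20 groups the level differed for 10 of 10 genes, by limma's F test with Benjamini-Hochberg adjustment over all genes at 0.05, where 42.7% of all genes passed.

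The first question of the design is how the diet changed these genes. All 10 were lower in arteries of IF mice, in sham-operated and in BCAS mice, when the change was averaged over the 5 days. Over both operations Sdf2l1 was at 36.6 ± 9.96 FPKM in AL and 20.4 ± 7.55 in IF libraries (SD, n = 39 each), Creld2 at 47.7 ± 9.40 and 32.8 ± 9.37, Calr at 230.0 ± 32.7 and 172 ± 33.3, and Xbp1 at 69.3 ± 9.51 and 53.2 ± 6.95. The values for Atf4 were 69.9 ± 9.47 and 56.9 ± 4.98 FPKM. For Hspa5, levels in sham AL libraries ran from 111 to 360 FPKM with a median of 180, and in sham IF libraries from 78.1 to 192 with a median of 124. In BCAS AL libraries Hspa5 ran from 145 to 271 with a median of 189, and in BCAS IF libraries from 90.9 to 208 with a median of 115. The ranges of AL and IF libraries overlapped in both operations.

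Among the chaperones in sham mice, the log2 change of IF against AL (on log2(FPKM + 1), mean of days) was -0.77 (SE 0.10) for Sdf2l1, a 1.71-fold lower level, with a limma adjusted p of 2.69e-08. It was -0.52 (SE 0.10, adjusted p 4.33e-05) for Hspa5, -0.38 (SE 0.06, adjusted p 1.65e-06) for Calr and -0.16 (SE 0.05, adjusted p 0.0278) for Dnajb9. Creld2 fell by 0.49 (SE 0.08, adjusted p 3.41e-06) on the log2 scale, Xbp1 by 0.36 (SE 0.05, adjusted p 2.25e-08) and Atf4 by 0.30 (SE 0.04, adjusted p 1.14e-07). The remaining genes, Hyou1, Pdia4 and Manf, changed by -0.40, -0.37 and -0.37. In sham mice 10 of 10 genes were thus called lower, where 11.9% of all genes were, and the median change of the 10 was -0.38 beside 0.01 over all genes. Because the 10 were chosen with earlier results of these data known, this share is a background and no independent test. The call for Dnajb9 is lost without sham AL day 21 replicate 4, where the change was -0.11 with a limma adjusted p of 0.0666, and without the filter on low values, with an adjusted p of 0.0639.

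In BCAS mice the changes had the same direction. Sdf2l1 fell by 0.94 on the log2 scale, 1.92-fold, with a limma adjusted p of 8.84e-11, Hspa5 by 0.65 (adjusted p 5.57e-07), Creld2 by 0.62 (adjusted p 1.49e-08) and Manf by 0.55 (adjusted p 4.73e-07). Dnajb9 had the smallest change, -0.22 (adjusted p 0.00168), and Atf4 the next smallest, -0.29 (adjusted p 1.61e-07). Again 10 of 10 were called lower, where 11.9% of all genes were, with a median of -0.47 beside 0.00 over all genes. The difference between the fasting effects of the 2 operations was called for 0 of 10 genes (0.0127% of all genes) and ran from -0.18 to 0.01, with SEs of 0.06 to 0.14, and 0 of 10 had an unadjusted limma p under 0.05 or were called by limma-voom on recovered fragments. By day the differences went both ways and 0 of 10 passed on any day: on day 14 they ran from -0.10 to 0.68 (median 0.47), 5 of 10 with an unadjusted limma p under 0.05 beside 886 of 15707 genes, and on day 30 from -0.90 to 0.41 (median -0.51), 7 of 10 beside 1016 genes. On days 1, 7 and 21 the counts at an unadjusted p were 1, 0 and 0. Fitted over both operations together, a comparison added after the values were seen, 10 of 10 were lower (19.3% of all genes).

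Heat shock genes outside the ER moved with this result. Of 18 genes, most of them cytosolic such as Hsph1 and Hspa8 and including Hspd1 and Hspe1, the chaperonins of the mitochondrial matrix, 17 were called lower in IF in sham mice and 17 in BCAS mice (medians -0.51 and -0.52). Their summed level ran from 1938 to 4214 FPKM in sham AL, 1781 to 3513 in sham IF, 2321 to 4215 in BCAS AL and 1672 to 3148 in BCAS IF libraries. With the heat shock score of each library as a further term in the model, 0 of 10 ER stress genes were called in sham mice and 1 in BCAS mice, Calr at -0.35 (limma adjusted p 0.0241). Under that model Sdf2l1 changed by -0.23 in sham mice (adjusted p 0.424) and by -0.41 in BCAS mice (adjusted p 0.103), and calls over all genes went from 3719 to 330 in sham mice and from 3623 to 495 in BCAS mice. Clock genes moved too: 14 of 20 were higher and 5 lower in sham mice, 14 and 4 in BCAS mice, for example Dbp at 1.89 in sham mice and Nfil3 at -1.58 and -1.64. The part of heat shock, of the hour of collection or of the time since the last meal in the fall of the ER stress genes was not tested beyond this.

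**Figure D2:**
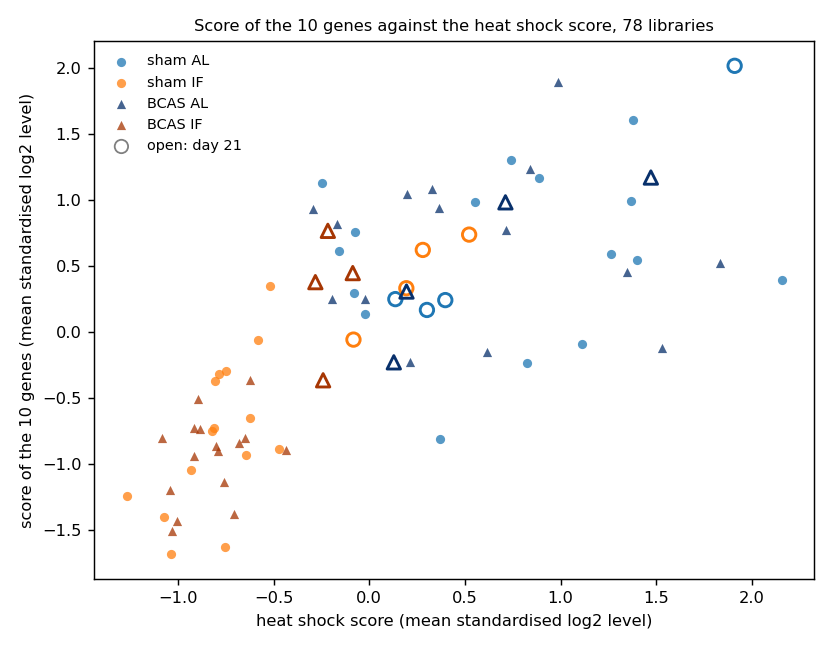
Score of the 10 ER stress genes (vertical axis) against the score of 18 heat shock genes (horizontal axis), both the mean of standardized log2(FPKM + 1) values without unit, 1 point per library, coloured by arm, with open symbols for day 21. AL libraries lie towards the upper right, IF libraries of the other days towards the lower left, and IF libraries of day 21 in between.

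By day, the most genes were called on day 1 in BCAS mice and on day 14 in sham mice. On day 1 the Sdf2l1 libraries were at 41.8, 66.6 and 39.9 FPKM in BCAS AL and 11.3, 18.0, 16.8 and 15.2 in BCAS IF, without overlap, a change of -1.61 (SE 0.24, limma adjusted p 8.62e-06). Hspa5 was at 199, 271 and 176 FPKM in BCAS AL and at 107, 108, 115 and 110 in BCAS IF, again without overlap (-0.94, SE 0.23, adjusted p 0.00997). The Hspa5 call is lost without AL replicate 2, the library at 271 FPKM, which is rich in short genes (limma adjusted p 0.123). Calr changed by -0.90, Manf by -0.97 and Creld2 by -1.06. In all, 9 of 10 genes were called lower on day 1 in BCAS mice (2.32% of all genes), the exception being Dnajb9 at -0.30 with overlapping groups. The call for Hyou1 is lost without any one of the 7 libraries, that for Xbp1 without any one of 5 and that for Pdia4 without any one of 3.

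On day 14 in sham mice, Sdf2l1 was at 53.0, 44.5, 41.6 and 44.3 FPKM in AL and at 22.3, 18.7, 13.0 and 16.8 in IF libraries, a change of -1.34 (SE 0.22, limma adjusted p 5.08e-05). Xbp1 was at 89.0, 84.3, 75.2 and 79.3 FPKM in AL and at 50.2, 51.7, 42.0 and 51.3 in IF libraries (-0.74, SE 0.10, adjusted p 2.51e-06). For both genes every AL library was above every IF library. Manf, at 75.7, 61.7, 61.02 and 66.8 FPKM in AL and 43.7, 35.6, 27.3 and 32.5 in IF libraries, changed by -0.93 (SE 0.18, adjusted p 0.000770). Here 9 of 10 genes were called lower (2.26% of all genes), all but Atf4, which was at -0.27 with an adjusted p of 0.0758.

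On the other days fewer genes passed. In sham mice 6 of 10 were lower on day 1 (1.85% of all genes): Sdf2l1 at -1.03, Hspa5 and Manf at -0.71, Creld2 at -0.67, Calr at -0.52 and Xbp1 at -0.42. On day 7 in sham mice 3 of 10 were (4.26%), Sdf2l1 at -0.85, Calr at -0.45 and Xbp1 at -0.37, and on day 30 only Atf4 was (3.12%). In BCAS mice 6 of 10 were lower on day 7 (1.04%), led by Sdf2l1 at -1.17 and Hspa5 at -0.84, and 3 of 10 on day 14 (3.11%), Calr at -0.47 and Xbp1 and Atf4 at -0.37. On day 30 in BCAS mice 7 of 10 were lower (0.592%), Sdf2l1 at -1.30, Hspa5 at -0.91, Hyou1 at -0.79, Creld2 and Manf at -0.74, Calr at -0.61 and Xbp1 at -0.47. No ER stress gene was called higher in IF on any day in either operation.

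Several of these daily counts depend on single libraries. In sham mice the count on day 1 fell from 6 to 3 without AL replicate 1 or 4, to 2 without IF replicate 2 and to 1 without IF replicate 3. Of those 6 genes only Sdf2l1 was called in each of the 8 fits that leave out 1 library, and Hspa5 was lost in 6 of them and by limma-voom. The count on day 7 went from 3 to 6 without AL replicate 2 and to 7 without IF replicate 1, and to 0 or 1 without AL replicate 3 or 4 or IF replicate 2 or 3. That on day 30 went from 1 to 2 without AL replicate 4. In BCAS mice the count on day 1 fell from 9 to 5 without AL replicate 2, a library rich in short genes, and was 8 or less whichever library was left out. The count on day 7 fell from 6 to 3 without AL replicate 1 or 3, and that on day 14 from 3 to 1 without AL replicate 1 or IF replicate 4. That on day 30 fell from 7 to 2, 3, 4 and 1 without AL replicate 1, AL replicate 2, IF replicate 3 and IF replicate 4. The count on day 14 in sham mice stayed between 6 and 9, and the counts for the mean of days between 9 and 10 in sham and at 10 in BCAS mice, over every library left out in turn.

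**Figure D3:**
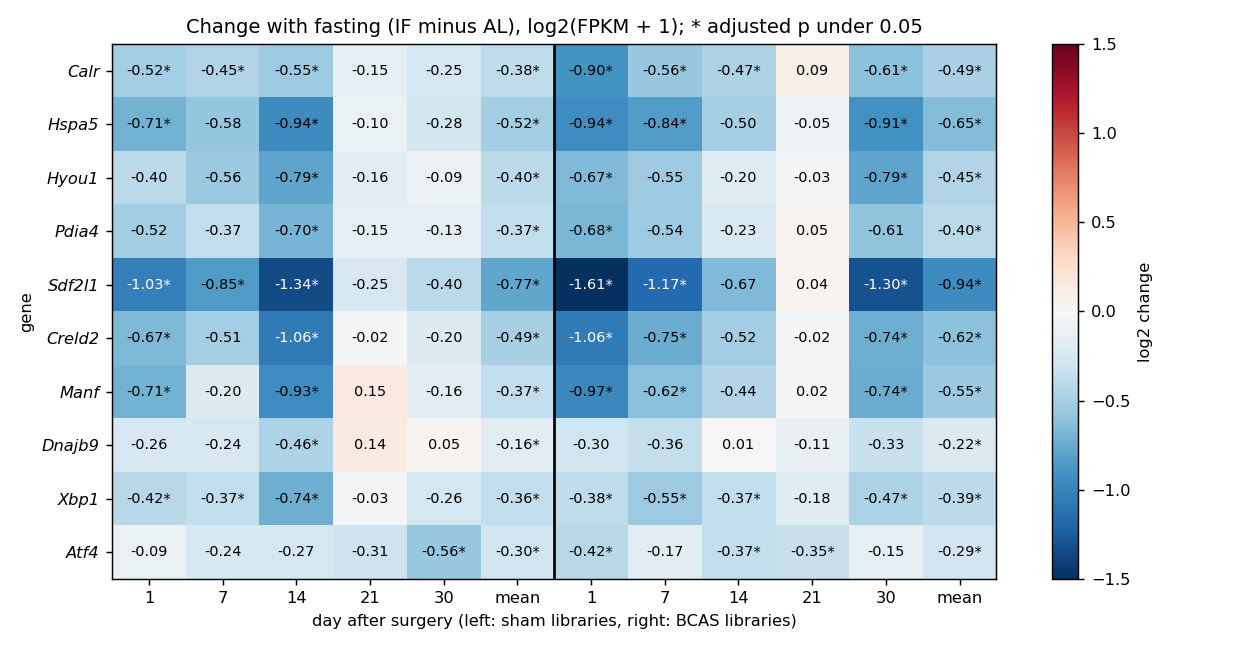
Heat map of the log2 change of IF against AL, on log2(FPKM + 1), for the 10 genes (rows) by day and for the mean of days (columns), in sham mice on the left and BCAS mice on the right, with the value in each cell, an asterisk where the limma adjusted p was under 0.05, and a colour scale that ends at 1.5 in each direction. Sdf2l1 has the darkest cells, -1.61 on day 1 in BCAS mice and -1.34 on day 14 in sham mice, and the columns of day 21 are pale but for Atf4.

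On day 21 almost no gene passed. In sham mice 0 of 10 genes were called by limma or limma-voom (0.178% of all genes were lower), 1 with an unadjusted p under 0.05. In BCAS mice only Atf4 was called, at -0.35 (0.522%), and that call is lost without BCAS AL day 21 replicate 2 or 4 or any one of the 4 BCAS IF day 21 libraries. Sdf2l1 was at 31.5, 32.3, 30.4 and 55.4 FPKM in sham AL and 34.5, 23.3, 30.6 and 34.0 in sham IF libraries, a change of -0.25, and at 22.3, 39.8, 28.6 and 41.8 in BCAS AL and 41.5, 29.3, 36.2 and 26.8 in BCAS IF libraries, a change of 0.04. The groups overlapped in both operations. Hspa5 was at 153, 135, 163 and 360 FPKM in sham AL and 192, 155, 170 and 184 in sham IF libraries (-0.10), where the 360 is the library that stood apart. Without that library the change of Hspa5 on day 21 in sham mice was 0.22, that of Sdf2l1 -0.05 and that of Manf 0.35, and 0 of 10 genes were called.

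Fitted over both operations together, 10 of 10 genes were lower on day 1 (6.30% of all genes), 10 on day 7 (5.33%), 9 on day 14 (7.16%), 1 on day 21 (1.64%) and 9 on day 30 (4.90%). The count on day 7 fell to 6 without sham IF day 7 replicate 3. The gene called on day 21 was Atf4 at -0.33 (limma adjusted p 0.000843). Like the fit over both operations, a test of whether this fasting change differed between the 5 days was added after the values were seen. It passed for 4 of 10 genes (0.420% of all genes): Sdf2l1 with a limma adjusted p of 0.0237, Manf with 0.0303, Creld2 with 0.0353 and Calr with 0.0374. That count was 1 by limma-voom, 1 after quantile normalization and 0 without the filter on low values. It fell to 0, 1 or 2 without any one of 12 libraries: sham AL day 21 replicates 1, 2 and 3, sham IF day 1 replicates 2 and 3, sham IF day 21 replicates 1 and 4, replicate 2 of the BCAS AL group of day 1, BCAS AL day 21 replicates 1 and 3, and BCAS IF day 21 replicates 1 and 3. Within sham mice alone the limma test passed for 0 of 10 (0.00637%), and for 4 without sham AL day 21 replicate 4 and 3 without sham AL day 7 replicate 1 or sham IF day 7 replicate 1. Within BCAS mice alone it passed for 0 of 10 (0.0255%), and for 1 without BCAS IF day 7 replicate 3 or BCAS IF day 30 replicate 1.

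Each arm was also compared with itself over time. In sham IF arteries 6 of 10 genes were higher on day 21 than the mean of the other days (2.58% of all genes): Sdf2l1 by 0.76 (limma adjusted p 0.00903), Manf by 0.73 (0.00161), Creld2 by 0.63 (0.00514), Calr by 0.39 (0.0228), Xbp1 by 0.34 (0.0122) and Dnajb9 by 0.32 (0.0388). In BCAS IF arteries 6 of 10 were higher (1.43%), Sdf2l1 by 0.97, Creld2 and Manf by 0.73, Hspa5 by 0.68, Calr by 0.56 and Pdia4 by 0.46. Manf showed it in each library: sham IF day 21 was at 65.9, 56.1, 57.9 and 60.03 FPKM and BCAS IF day 21 at 69.8, 54.6, 51.8 and 51.3, while on day 14 the sham IF libraries were at 27.3 to 43.7 and the BCAS IF libraries at 29.8 to 37.3, below each of those. In AL arteries day 21 was called for 0 of 10 genes, with changes of -0.08 to 0.12 in sham and -0.26 to 0.11 in BCAS mice. Without sham AL day 21 replicate 4 the changes in sham AL ran from -0.31 for Hspa5 to 0.15 for Atf4, 8 of them below 0, and again 0 of 10 were called, with limma adjusted p of 0.461 or more. Without sham IF day 21 replicate 1 the count in sham IF fell from 6 to 2, and after quantile normalization to 3. The count in BCAS IF ran from 4 to 6 over every library left out in turn. There Pdia4 is lost in 6 of 20 such fits and by limma-voom, and Hspa5 without BCAS IF day 21 replicate 1 and after quantile normalization. The difference of the heat shock genes between the diets was smaller on day 21 as well, with 1 of 18 lower in sham and 4 of 18 in BCAS mice, and its part in the pattern was not tested.

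Tested over the 5 days within an arm, 2 of 10 genes varied in sham IF (1.88% of all genes), Creld2 (limma F test, adjusted p 0.0323) and Manf (0.0141), and 5 of 10 in BCAS IF (5.23%), Sdf2l1, Creld2, Calr, Xbp1 and Manf, with adjusted p of 0.00348 to 0.0434. In sham AL 4 of 10 varied (17.3%), Xbp1, Atf4, Dnajb9 and Manf, a share to be read against a background at which many genes varied, and in BCAS AL only Atf4 did (4.48%). The sham AL count fell to 1 or 2 without day 7 replicate 4, day 14 replicate 1 or 2 or day 30 replicate 3 or 4. The sham IF count fell to 0 or 1 without day 1 replicate 2 or 3, day 14 replicate 3 or 4 or any day 21 library, and rose to 4 without day 30 replicate 2. The BCAS IF count fell to 2 without day 21 replicate 1, and the BCAS AL count to 0 without day 7 replicate 1.

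The second question is how BCAS changed these genes. Averaged over the days it changed none detectably: in AL mice 0 of 10 genes were called (0.987% of all genes), with log2 changes of -0.04 to 0.12, and in IF mice 0 of 10 (0.758%), with changes of -0.09 to -0.01. SEs ran from 0.04 for Atf4 to 0.10 for Sdf2l1, and 0 of 10 genes had an unadjusted limma p under 0.05, or were called by limma-voom, in either diet. Single days in AL mice went in opposite directions. On day 1 all 10 changes were positive, from 0.09 to 0.49, with 3 unadjusted limma p under 0.05, beside 1829 of 15707 genes, and 0 called. On day 14 9 of 10 were negative, 8 with an unadjusted p under 0.05, beside 1674 genes, and 0 called. On day 30 9 of 10 were positive, 8 of 10 genes had an unadjusted p under 0.05, beside 1530 genes, and 1 was called, Atf4, in the lower direction.

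On day 14 in AL mice, Xbp1 was at 89.0, 84.3, 75.2 and 79.3 FPKM after sham and 63.8, 70.7, 56.3 and 57.2 after BCAS, a change of -0.40 (limma adjusted p 0.0641), and Dnajb9 was at 44.1, 36.8, 41.2 and 40.6 FPKM after sham and 32.2, 32.8, 25.7 and 29.1 after BCAS, a change of -0.43 (adjusted p 0.0805). For 7 of 10 genes each BCAS library was below each sham library on that day, as it was for 2.86% of all genes, and none passed the adjusted test. Calls over the 5 days in this comparison went from 1 to 2 without sham AL or BCAS AL day 14 replicate 2. The sham AL libraries of day 14 are also those behind the fasting changes of that day in sham mice, so the BCAS and fasting comparisons share their control. On day 30 in AL mice Sdf2l1 was at 28.5, 35.6, 24.6 and 16.8 FPKM after sham and 54.2, 46.7, 42.7 and 32.6 after BCAS, with overlap (0.74, adjusted p 0.151). Manf was at 44.9, 51.0, 38.2 and 33.5 FPKM after sham and 70.3, 63.7, 66.1 and 51.9 after BCAS, without overlap (0.58, adjusted p 0.170). For 3 of 10 genes, Dnajb9, Hyou1 and Manf, the BCAS libraries were all above the sham libraries on day 30, as for 3.20% of all genes.

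Atf4 went in the other direction on that day. It was at 89.6, 83.9, 78.3 and 83.0 FPKM in sham AL and 59.9, 65.8, 67.4 and 60.6 in BCAS AL libraries on day 30, a change of -0.40 (SE 0.09, limma adjusted p 0.0266), the one ER stress gene of 10 called lower there (0.267% of all genes). The call is lost, with adjusted p up to 0.179, without sham AL day 30 replicate 1 or 2 or BCAS AL day 30 replicate 1 or 4. The same sham AL libraries set the fasting change of Atf4 on day 30 in sham mice, -0.56 (adjusted p 2.02e-05), with sham IF at 61, 57.9, 51.7 and 54.8 FPKM, so these comparisons share their control.

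Whether the BCAS effect differed between days was tested directly. In AL mice 3 of 10 genes passed (1.97% of all genes): Atf4 with a limma adjusted p of 0.00598, Dnajb9 with 0.0413 and Sdf2l1 with 0.0498. In IF mice 0 of 10 did (0% of all genes). The count in AL mice rose to 5 without sham AL day 7 replicate 1 or sham AL day 21 replicate 4 and fell to 1 without any one of 13 libraries: sham AL day 1 replicate 1, day 14 replicates 1, 3 and 4, day 30 replicates 3 and 4, and BCAS AL day 1 replicates 1 and 2, day 14 replicates 3 and 4, and day 30 replicates 1, 2 and 3. The 2 factors together, BCAS IF against sham AL, gave 10 of 10 lower over the mean of days (16.5% of all genes), with changes from -0.82 to -0.20, and this comparison shares its libraries with those above.

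Beyond the group means the genes rose and fell together from library to library. Each library's deviation from its group mean was correlated over all 45 pairs of genes and the 78 libraries, with p-values from 100000 permutations within groups and Benjamini-Hochberg adjustment over the 45 pairs. For Pearson's r and for Spearman's rho, 36 of the 45 pairs passed. These were the pairs without Atf4, with r from 0.50 to 0.93 and a median of 0.78. Hspa5 and Pdia4 were closest, with r of 0.93 and rho of 0.93 (adjusted permutation p 1.3e-05 for each, from the smallest raw p that the permutations can give, 1e-05). Creld2 and Manf, with r of 0.91 and rho of 0.89, were the next pair, and Calr and Dnajb9 the weakest of the 36, with r of 0.50 and rho of 0.54. Leaving out the 2 libraries farthest from the median moved no r by more than 0.0742. Libraries share depth and composition across genes, which raises such correlations. How many pairs of other genes would pass was not computed, so the count has no background beside it.

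Atf4 gave low correlations. Its 9 pairs had r from -0.17 with Dnajb9 to 0.15 with Sdf2l1, with a median of 0.03, and none passed (adjusted permutation p for r from 0.267 to 0.895). Over all libraries, group differences included, its r with the other genes ran from 0.13 to 0.51.

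**Figure D4:**
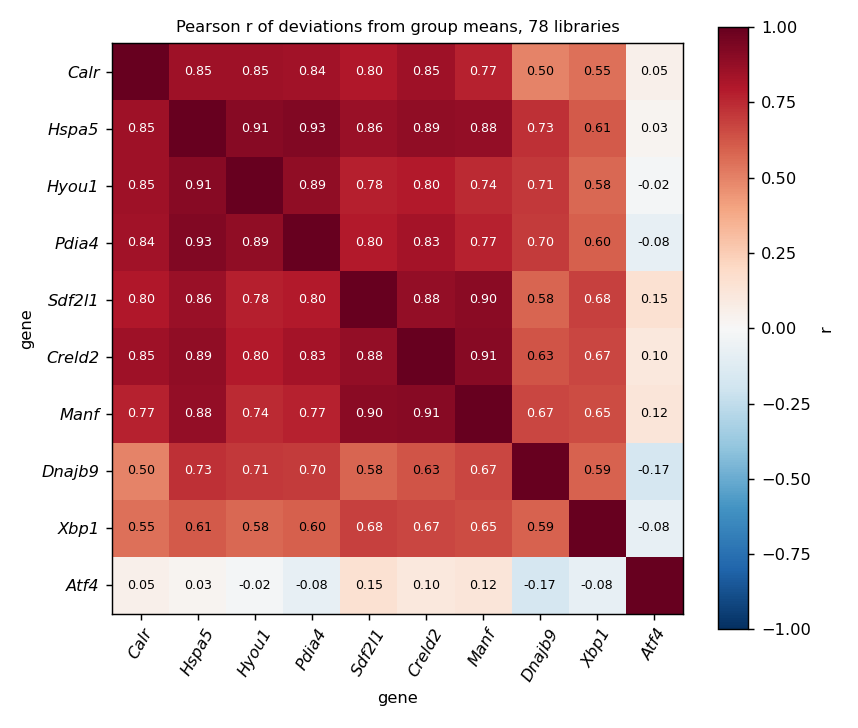
Pearson's r (colour scale and printed value) between the 10 ER stress genes over 78 libraries, computed on deviations from group means. Values run from 0.50 (rounded, Calr with Dnajb9) to 0.93 for the 36 pairs without Atf4, and Atf4 has values of -0.17 to 0.15.

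Over all genes, the levels most like the score of the 10 over 78 libraries were those of Pdia6 (r = 0.96), Serpinh1 (0.95), Hsp90b1 (0.94), Rpn1 (0.89) and Hnrnpc (0.89). Pdia6 is an ER disulfide isomerase, Serpinh1 the collagen chaperone HSP47, Hsp90b1 the ER chaperone GRP94 and Rpn1 a subunit of the oligosaccharyltransferase. The most opposite were Sspn, Cirbp and Spata24 (each -0.81), of which Cirbp encodes a cold-inducible RNA-binding protein. These correlations include the differences between groups and are a description. Gene by gene, Pdia6 was closest for 8 of 10, Xbp1 among them at 0.82. Dnajb9 was closest to Serp1 (0.81), Dnajc3 (0.79) and Rpn1 (0.79), and Atf4 to Dusp8 (0.85), Stk40 (0.82) and Arid5a (0.81), of which Dusp8 encodes a MAP kinase phosphatase.

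Lists of other genes of the pathway had medians nearer 0 in IF against AL. The 10 genes and these lists were chosen with earlier results of these data known, so this contrast is a description. Of 12 sensors and regulators of the unfolded protein response, 4 were lower and 0 higher in sham mice, and 5 lower and 1 higher in BCAS mice, with medians of -0.08 and -0.06 beside 0.01 and 0.00 over all genes. The genes of the sensors themselves were called in neither operation: Ern1 for IRE1 (-0.06 in sham and -0.003 in BCAS mice), Eif2ak3 for PERK (-0.10 and -0.03) and Atf6 (-0.04 and -0.01). Creb3l1, a membrane-bound transcription factor of the ATF6 kind that acts on collagen genes, changed by -0.56 in sham and -0.75 in BCAS mice (limma adjusted p 7.02e-10 and 3.40e-14), and Eif2s1, the target of PERK, by -0.18 and -0.24. Of 26 further ER chaperones and folding enzymes, 10 were lower and 3 higher in sham and 9 lower and 2 higher in BCAS mice (medians -0.06 and -0.05). Pdia6 changed by -0.35 and -0.43 and Hsp90b1 by -0.29 and -0.40, while Dnajc10, an ER reductase, was higher at 0.10 and 0.19.

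Of 20 genes of ER-associated degradation, which sends misfolded proteins to the proteasome, 6 were lower and 4 higher in sham and 8 lower and 3 higher in BCAS mice (medians -0.03 and -0.06). Syvn1, the ubiquitin ligase HRD1, changed by -0.29 and -0.37, and Erlec1, an ER lectin, by 0.16 in each. Of 29 genes of the translocon, glycosylation and ER export, 9 were lower in each operation and 1 and 0 higher (medians -0.08 and -0.05). Gfpt1, the entry enzyme of hexosamine synthesis and a known XBP1 target, changed by -0.31 and -0.26. Of 34 targets of ATF4 and CHOP, the arm of PERK, 6 were higher and 7 lower in sham and 4 higher and 10 lower in BCAS mice (medians 0.00 and -0.04). Within it Stc2 was higher at 0.40 and 0.37 and Pck2 at 0.18 and 0.20, while Cebpb was lower at -0.51 and -0.37. On day 21 none of the genes of these 5 lists was called in either operation.

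**Figure D5:**
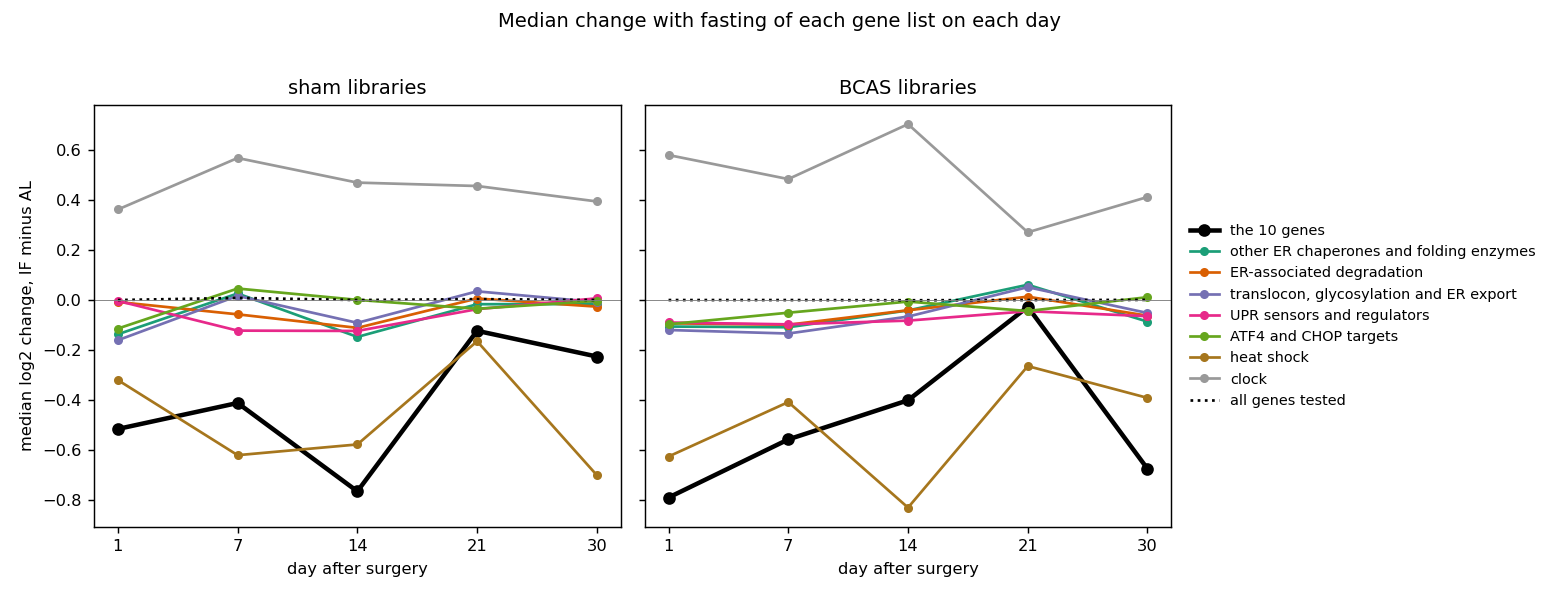
Median log2 change of IF against AL, on log2(FPKM + 1), by day (equally spaced) in sham and in BCAS mice for the 10 ER stress genes, 5 lists of related pathway genes, the heat shock genes, the clock genes and all genes tested (dotted). The 10 genes and the heat shock genes lie below 0 and come nearest to it on day 21, the clock genes lie above 0, and the lists of related genes stay close to 0.

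The library scores of these lists followed the score of the 10 genes to different degrees. On deviations from group means r was 0.78 for the further ER chaperones, 0.76 for ER-associated degradation, 0.67 for the translocon list, 0.65 for the sensors and 0.16 for the targets of ATF4 and CHOP. For the heat shock genes r of deviations was 0.50 (rho 0.48, and 0.50 without the 2 farthest libraries). With group differences included, r for the heat shock genes was 0.73 over all libraries, 0.24 over AL libraries and 0.80 over IF libraries taken alone. For clock genes r of deviations was -0.09, beside -0.68 over all libraries, group differences included. These are descriptions over libraries that share depth and composition.

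Markers of the cells that arteries and their surroundings hold were compared in the same way. Of 10 smooth muscle markers 1 was lower in each operation, Myocd, at -0.34 and -0.33, and their summed level had medians of 6176 FPKM in sham AL, 6363 in sham IF, 6822 in BCAS AL and 5942 in BCAS IF libraries. Of 15 endothelial markers 2 were lower in each and 1 and 0 higher, of 9 pericyte markers 2 and 0 were higher, and of 12 fibroblast and leptomeningeal markers 2 were higher and 1 lower in each. Of 14 macrophage and microglia markers 5 were higher in sham and 3 in BCAS mice, Cd68 among them at 0.28 and 0.27. Plasma cells secrete much protein and hold much ER, and of 5 plasma and B cell markers tested 1 was higher in each, Sdc1 at 0.14. The summed level of 11 of them ran from 28.9 to 48.0 FPKM in sham AL, 31.4 to 95.4 in sham IF, 30.7 to 63.2 in BCAS AL and 30.9 to 119 in BCAS IF libraries, with 7 of the 11 under 1 FPKM on average. The 9 neuronal markers had medians of -0.01 and 0.02 and the 5 red blood cell markers, none of them called, of -0.58 and -0.88 (Hbb-bt with limma adjusted p of 0.224 and 0.0518). Of 9 astrocyte markers 1 was higher and 1 lower in each. Over libraries, the deviation of the score of the 10 genes went with that of smooth muscle markers at r of -0.43 and of astrocyte markers at 0.35. The part of cell composition in the fall of the ER stress genes was not tested beyond these values.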

How the data were processed

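RNA was extracted from cerebral arteries with RNeasy kits and 2 ug of total RNA went into each library, per the labels' protocols. The authors deposited 1 table of FPKM values per gene for 78 libraries. DESeq 1.10.1 is named in the submitters' processing notes, with no role. The aligner, counter, genome build, annotation and use of strand are not given in the sources used here, and 54409 of 54532 gene IDs are in GENCODE M21, 98.3% with the same coordinates. Values under 1000 fragments were whole multiples of 1 fragment within 0.05 in 100% of cases, so fragments per library were recovered, 14601572 to 25944175. No 2 libraries were identical.

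The 10 genes, gene lists and tests were chosen with earlier results of these data known. The fit took the 15707 genes that reached 1 FPKM in 3 or more libraries. Log2(FPKM + 1) was fitted with limma 3.58.1 (R 4.3.3, trend and robust), 1 model with 20 group means and 58 residual degrees of freedom. P-values were Benjamini-Hochberg adjusted over all kept genes within a comparison, with a threshold of 0.05. Correlations used within-group permutations (numpy 2.4.6). Promoters came from RefSeq (GRCm38.p6). The fit was tested on simulated data. Some genes outside the 10 were named for description. These were the sensor genes Ern1, Eif2ak3 and Atf6, the mitochondrial chaperonins Hspd1 and Hspe1, the genes that overlap Manf and the tissue markers given with the libraries. The others were named by rule: up to 4 genes of each list per comparison that passed with the smallest p, or 1 where none passed, the 5 most and 3 least like the score and the 3 most like each gene. Alternatives were another pseudocount, no filter, median-of-ratios and quantile scaling, limma-voom on recovered fragments, brain or heat shock scores as covariates, leaving out the libraries rich in short genes, fits of only the compared groups, and each library left out in turn.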

Additional observations from a re-analysis of the deposited data

Results flagged for a closer look

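Within groups of 4 libraries, 15 of 180 combinations of gene and group (8.33%) held a library far from the other 3 by Dixon's test at 95%, where chance gives about 5%, and since the genes go together these tests are not independent. Sham AL day 21 replicate 4 was far above its group for 7 genes, at 360.4 FPKM for Hspa5, 55.39 for Sdf2l1, 63.29 for Creld2, 79.63 for Pdia4, 54.15 for Dnajb9, 24.76 for Hyou1 and 82.53 for Manf. That library held 22857918 fragments, with 0.0693% in genes under 300 bases and 7.33% mitochondrial, and its heat shock score was the second highest of 78. BCAS IF day 7 replicate 3 was high for Calr (182.6 FPKM) and Hspa5 (148.2), and sham IF day 30 replicate 2 for Pdia4 (52.14) and Hyou1 (14.49). BCAS AL day 21 replicate 4 was high for Xbp1 (82.41). Low values were those of Xbp1 in sham IF day 14 replicate 3 (42.03), Atf4 in sham AL day 1 replicate 3 (52.85) and Hyou1 in sham IF day 21 replicate 2 (10.18).

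The BCAS effect in AL mice differed between days for Atf4 (limma F test, adjusted p 0.00598), Dnajb9 (0.0413) and Sdf2l1 (0.0498). In a limma F test added after the values were seen, so did the fasting effect over both operations for Sdf2l1 (adjusted p 0.0237), Manf (0.0303), Creld2 (0.0353) and Calr (0.0374). Without sham AL day 21 replicate 4 the BCAS count went from 3 to 5.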

How the results depend on the processing

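Of 341 recomputed counts (without those that leave out 1 library) 278 stayed within 1.5 times. No paired analysis was possible because replicate numbers follow accession order and pair no libraries across groups. With each other setting, all 10 genes were lower in IF over the mean of days in both operations, except with the heat shock score as covariate, where Dnajb9 (0.0758) and Manf (0.0871) in sham mice and Dnajb9 in BCAS mice (0.0118) turned, as did Xbp1 on day 14 in BCAS mice (0.0280). No scaling moved the median of all genes by more than 0.0820. The cause of these changes was not tested.

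With the heat shock score, calls of IF against AL in sham mice were 0 on days 1, 7, 14 and 30 and for the mean of days, and in BCAS mice 2, 0, 0, 0 and 1 on the 5 days and 1 for the mean. Over both operations they were 3, 0, 0 and 0 on days 1, 7, 14 and 30 and 1 for the mean. Calls for BCAS over the days in AL mice were 4, BCAS IF against sham AL had 0 for the mean and 1 over the days, and sham IF on day 21 had 0. F tests over the days called 7, 0, 3 and 2 genes in sham AL, sham IF, BCAS AL and BCAS IF, the BCAS effect between days 5 in AL, and the fasting effect between days 1 in sham, 1 in BCAS and 0 over both.

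Fitting only the compared groups, calls of IF against AL were 2 and 0 on days 1 and 7 in sham mice, 1, 5, 0 and 4 on days 7, 14, 21 and 30 in BCAS mice, and 5 on day 7 over both. They were 0 for BCAS over the days in AL mice and 17 for BCAS IF against sham AL. F tests over the days called 0, 1 and 0 genes in sham AL, sham IF and BCAS AL, 1 for the BCAS effect in AL and 1 for the fasting effect in BCAS mice. Quantile normalization gave 3 and 5 on days 1 and 7 in sham mice, 1 on day 14 in BCAS mice, 3 for sham IF on day 21, and in F tests 1 in sham IF, 3 in BCAS IF, 1 for the BCAS effect in AL and 1 for the fasting effect over both. Without the filter the counts were 0 on day 21 in BCAS mice, and in F tests 2 in sham AL, 1 for the BCAS effect in AL and 0 for the fasting effect over both. Without the libraries rich in short genes they were 5 on day 1 in BCAS mice, and in F tests 1 in sham AL, 4 in sham IF and 1 for the BCAS effect in AL. Limma-voom gave F-test counts of 1 in sham IF and 1 each for the fasting effect in BCAS mice and over both. The brain tissue score gave 1 on day 7 in sham mice and 1 for the fasting effect in BCAS mice.

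Leaving out 1 library at a time, calls of IF against AL ran from 1 to 7 on day 1, 0 to 7 on day 7 and 1 to 2 on day 30 in sham mice, and in BCAS mice from 5 to 8, 3 to 7, 1 to 3, 0 to 1 and 1 to 8 on the 5 days. Over both operations they ran from 6 to 10 on day 7. They ran from 0 to 2 for BCAS over the days in AL mice and from 2 to 7 for sham IF on day 21. F tests ran from 1 to 6 in sham AL, 0 to 4 in sham IF, 0 to 1 in BCAS AL and 2 to 6 in BCAS IF, from 1 to 5 for the BCAS effect in AL, and from 0 to 4 in sham, 0 to 1 in BCAS and 0 to 5 over both for the fasting effect.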
